A study of Mus musculus with 15 samples.

Results

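Hspa5, Hsp90b1, Hyou1, Pdia4, Pdia6, Sdf2l1, Creld2, Manf, Herpud1 and Derl3 are 10 of the 16658 genes in the deposited table, and all 10 were among the 13541 genes with enough signal to be tested. They encode chaperones, folding enzymes and degradation factors of the endoplasmic reticulum (ER). They were listed by name and taken where the table held them. The list was chosen from earlier results of these data, in which Derl3 was higher with rivaroxaban and with dabigatran than in untreated hearts. Differences of the drug groups from the untreated group are therefore given as a description, without p-values. The other comparisons share libraries with those, so their p-values are not independent of that choice.

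RNA was sequenced from hearts of male wild-type C57BL/6 mice aged 8 to 10 weeks. The samples are described as holding the infarct and the muscle around it, which can apply only to hearts with an infarct. The study tied off a coronary artery for 90 min and let blood flow return for 24 h. Mice of the rivaroxaban group (an inhibitor of clotting factor Xa) received 3 mg/kg for 7 days before surgery, and mice of the dabigatran group (an inhibitor of factor IIa, or thrombin) received 10 mg/kg for 7 days. Activated protein C (aPC), an anticoagulant protease, was given at 1 mg/kg 30 min before surgery, and drug treatment resumed 2 h after surgery. The control groups are labelled sham and untreated. The labels describe the surgery for the study as a whole, so what was done to each untreated mouse is not stated. The table holds 3 sham libraries and 2 of each other group, each with its own number, and whether each number is a separate animal is not stated, so the p-values measure only the spread between these libraries. The libraries held 26203566 to 36135006 reads on listed genes.

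Proteins that enter the ER fold with the help of chaperones and of enzymes that form disulfide bonds, and misfolded proteins are sent back to the cytosol for degradation. When unfolded proteins build up, the sensors Atf6, Ern1 (IRE1) and Eif2ak3 (PERK) start the unfolded protein response. Cleaved Atf6 and spliced Xbp1 turn on chaperone and degradation genes, while PERK slows translation and raises Atf4. In heart muscle this response is known to be engaged by ischemia, and Derl3 is known there as a target of Atf6.

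Promoter sequences were available from RefSeq (GRCm38.p6) for 8 of the 10 genes. They are shown as a description, and a link between these sequences and the levels of the genes was not tested. The genes were listed by name as ER genes, so the counts of elements below are not a result of these libraries. Manf and Hyou1 had no entry. The ER stress response element, the site at which Atf6 is known to act with the CCAAT-binding factor NF-Y, is CCAAT, 9 bases of any kind and CCACG, searched on both strands from 250 bases before to 50 after the start of the gene. It was found in 5 of the 8 promoters (Hspa5, Derl3, Hsp90b1, Pdia6 and Creld2), and in 39 of the 32851 promoters of the same table (0.119%). The more compact form, ATTGG, 1 base and CCACG, was found in Herpud1 and in 12 of the 32851 (0.0365%). The stretches below run 5′ to 3′ along the gene's strand, with both ends of each element in capitals. CGTGG followed by ATTGG is the same element read on the other strand.
Hspa5, chr2:34772020-34772048, plus strand: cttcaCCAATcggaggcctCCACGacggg
Derl3, chr10:75893222-75893280, plus strand: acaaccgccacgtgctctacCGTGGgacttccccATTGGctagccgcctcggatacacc
Hsp90b1, chr10:86705513-86705676, minus strand: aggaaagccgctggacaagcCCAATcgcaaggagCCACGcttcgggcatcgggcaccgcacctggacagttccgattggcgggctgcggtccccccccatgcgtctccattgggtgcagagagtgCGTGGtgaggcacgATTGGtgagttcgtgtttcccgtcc
Pdia6, chr12:17266471-17266529, plus strand: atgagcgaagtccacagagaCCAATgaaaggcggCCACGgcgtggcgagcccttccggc
Creld2, chr15:88819500-88819558, plus strand: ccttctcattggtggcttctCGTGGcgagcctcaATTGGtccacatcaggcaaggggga
Herpud1, chr8:94386357-94386407, plus strand: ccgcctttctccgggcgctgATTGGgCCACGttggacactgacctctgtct

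Hsp90b1 carried 2 copies of the element, in opposite directions. Sdf2l1 and Pdia4 held neither spaced form in this window. For Pdia4 the bases after the RefSeq start were in none of its GENCODE M21 transcripts, unlike for the other 7, so its window may not sit at the start of those transcripts. The Hspa5 stretch lies before its RefSeq start but inside the GENCODE M21 gene, which begins at position 34771970. The single pieces CCACG and CCAAT were in all 8 promoters. Those pieces are common: CCACG was in 32.8% and CCAAT in 37.4% of all promoters, and each spaced element contains them. The Xbp1-type core TGACGTGG was in 0 of the 8 promoters and in 0.676% of all, and TTGCATCA, a site for C/EBP and Atf factors, was in Herpud1 and in 0.895% of all. These matches describe the letters in the window and not the binding of a factor.

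Derl3, on chromosome 10, encodes a derlin, a membrane protein that helps to move misfolded proteins out of the ER for degradation. Its level was 1.33, 0.95 and 3.43 log2 CPM (read counts scaled to library size) in sham replicates 003, 006 and 007. In untreated replicates 17 and 19 it was -1.10 and -0.51, which rests on 13 and 18 reads. It was 4.80 and 2.44 in rivaroxaban replicates Riva-313 and Riva-319, 4.87 and 4.11 in dabigatran replicates Dabi-202 and then Dabi-204, and 2.26 and 3.83 in aPC replicates aPC-791 and aPC-792. Both untreated libraries lay below the other 9, and both aPC libraries lay below both dabigatran libraries. The rivaroxaban libraries overlapped those of both other drugs. Mean CPM was 0.518 in untreated hearts, 5.01 in sham, 9.46 with aPC, 16.5 with rivaroxaban and 23.1 with dabigatran. Of the 13541 genes tested, 9 had a wider spread of group means than the 5.29 of Derl3, against a median of 0.74 over all genes. That spread is the difference between dabigatran and untreated hearts, for which Derl3 was chosen. Its rank therefore describes the choice and tests nothing.

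Hspa5 (BiP, chromosome 2) is the main HSP70 chaperone of the ER and keeps the stress sensors inactive while it is bound to them. It stood at 10.13, 10.56 and 11.11 log2 CPM in sham, 9.80 and 10.07 in untreated, 11.15 and 10.42 with rivaroxaban, 11.76 and 11.24 with dabigatran and 10.71 and 11.40 with aPC, each in the order of replicates used for Derl3. The untreated libraries were again the lowest and dabigatran replicate Dabi-202 the highest. Hspa5 alone took 0.0909% and 0.0980% of the reads in the untreated libraries and 0.350% and 0.267% in the dabigatran libraries. Hsp90b1 (GRP94), the HSP90 chaperone of the ER, stood at 7.89, 8.18 and 9.0 in sham, 7.37 and 7.71 in untreated, 9.29 and 8.25 with rivaroxaban, 9.53 and 9.11 with dabigatran and 8.39 and 9.39 with aPC on the same log2 scale. It followed Hspa5 closely (r = 0.985 over the 11 libraries). Hyou1 (GRP170), which exchanges the nucleotide of Hspa5, was 7.35, 7.77 and 8.64 in sham and 7.21 and 5.65 in untreated hearts. Its highest library was sham replicate 007.

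Sdf2l1 works with Hspa5 and the co-chaperone Dnajb11 to keep unfolded proteins from aggregating. It was at 5.21, 5.71 and 6.53 log2 CPM in sham and at 3.98 and 3.46 in untreated hearts. With treatment it was 6.22 and 5.23 (rivaroxaban), 7.11 and 6.77 (dabigatran) and 6.16 and 6.93 (aPC). The untreated libraries were the lowest 2 by a wide margin, and both dabigatran libraries were above all 3 sham libraries. Pdia4 and Pdia6, disulfide isomerases, were also lowest in both untreated libraries. Pdia4 was 6.44, 6.83 and 8.00 in sham, 5.73 and 4.54 in untreated, 7.58 and 6.61 with rivaroxaban, 8.13 and 8.01 with dabigatran and 7.49 and 8.42 with aPC. Pdia6 varied over a narrower range, from 6.42 in untreated replicate 19 to 8.33 in dabigatran replicate Dabi-202.

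Creld2, an ER and secreted protein that is made under ER stress, was 5.16, 5.64 and 6.57 log2 CPM in sham, 4.89 and 4.29 in untreated, 5.93 and 5.22 with rivaroxaban, 7.41 and 6.72 with dabigatran and 6.07 and 7.07 with aPC. Manf, a secreted protective factor that binds Hspa5, was 6.67, 7.14 and 7.84 in sham, 6.26 and 5.19 in untreated, 7.36 and 6.70 with rivaroxaban, 7.36 and 7.81 with dabigatran and 7.62 and 8.23 with aPC. Manf was 1 of 2 genes with the highest mean under aPC. The other was Herpud1, a membrane component of the complex that extracts misfolded proteins. Herpud1 was 7.93, 7.64 and 8.51 in sham, 7.87 and 8.57 in untreated, 8.24 and 8.22 with rivaroxaban, 8.18 and 7.87 with dabigatran and 8.62 and 8.65 with aPC. Its untreated libraries lay within the range of the rest, so it did not share the low untreated level of the other 9 genes. Reads of Manf, Pdia6 and Herpud1 are uncertain where these genes overlap Dcaf1, Atp6v1c2 and Gm15890, because the strand setting of the counting is not given in the sources used here.

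**Figure D1:**
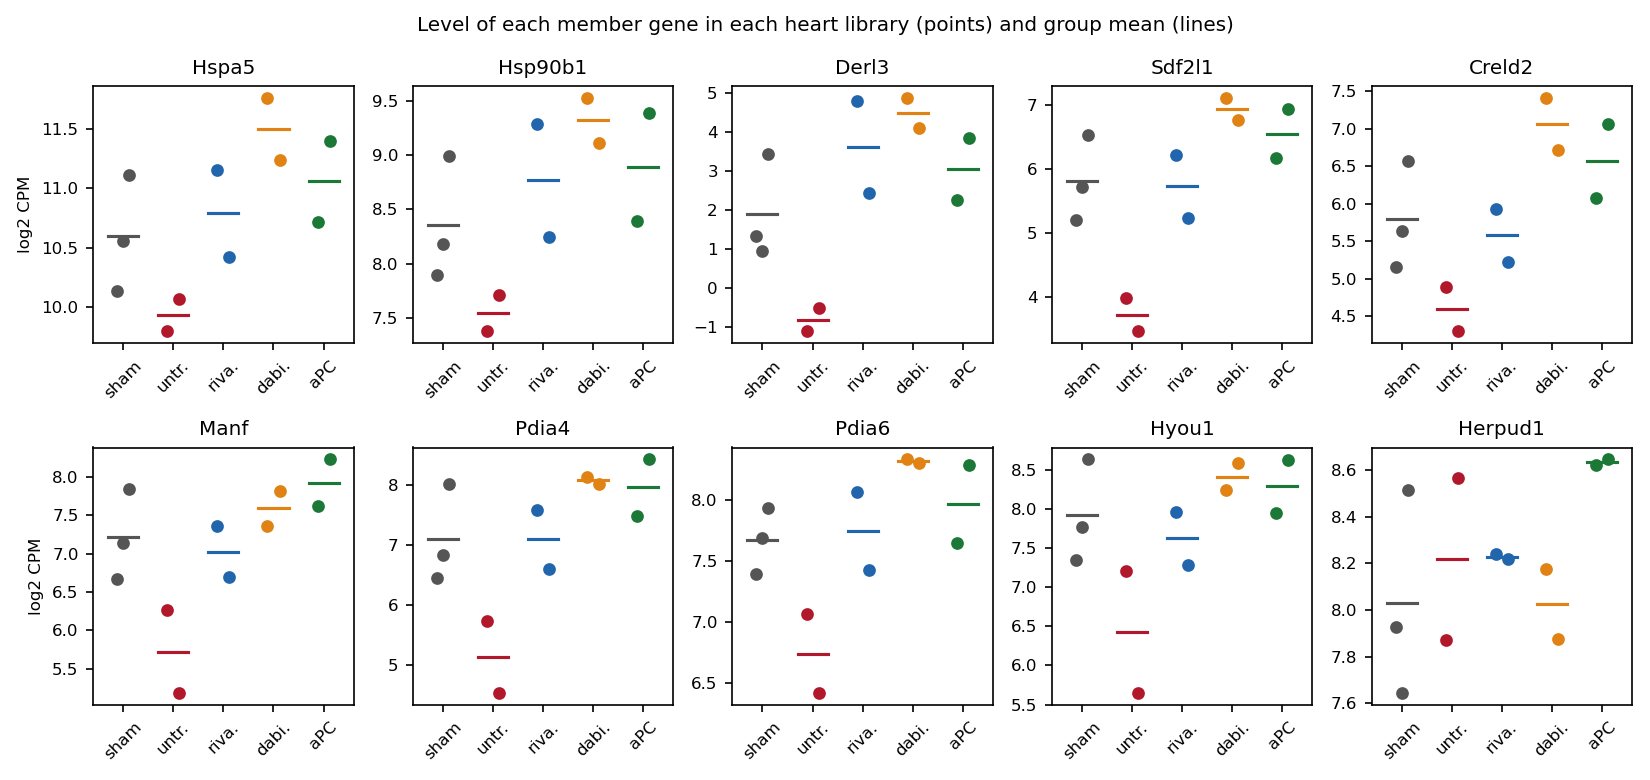
Level of each of the 10 genes in log2 CPM (vertical axis, a separate range in each panel) in each of the 11 libraries, by group (untr., untreated; riva., rivaroxaban; dabi., dabigatran). Points are libraries in the order of their numbers and lines are group means; the untreated mean is the lowest for 9 genes, and for Herpud1 the dabigatran mean is.

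Per kilobase of exon the genes kept very different levels. In sham hearts Hspa5 averaged 382 CPM per kilobase, Herpud1 116, Hsp90b1 85.9, Pdia4 63.6, Pdia6 55.0, Sdf2l1 54.6, Manf 44.6, Creld2 44.0, Hyou1 36.0 and Derl3 2.51. Derl3 remained the scarcest with dabigatran, at 11.6 CPM per kilobase against 696 for Hspa5. The gene with the widest differences between groups was thus also the one with the fewest reads. Together the 10 genes took 0.178% and 0.172% of reads in untreated hearts, 0.234% to 0.441% in sham, 0.281% and 0.441% with rivaroxaban, 0.293% and 0.494% with aPC and 0.511% and 0.595% with dabigatran.

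The untreated hearts were compared with sham hearts to ask how the genes stood without a drug. Sdf2l1, Pdia4, Manf and Pdia6 were lower in untreated hearts, and no gene of the 10 was higher. The test was limma with Benjamini-Hochberg adjustment over all 13541 genes, and a gene was called at an adjusted p under 0.05. The list was chosen from comparisons of drug groups with these same 2 untreated libraries. Such a choice can favour genes that are low in them, so the p-values below may be too small. Sdf2l1 fell by 2.10 ± 0.40 (SE, log2 scale, 3 sham and 2 untreated libraries, limma adjusted p = 0.0142). Pdia4 fell by 1.96 ± 0.50 (limma adjusted p = 0.0349), Manf by 1.49 ± 0.39 (limma adjusted p = 0.0376) and Pdia6 by 0.93 ± 0.26 (limma adjusted p = 0.0482). Of all genes tested, 5.52% were called lower and 5.07% higher. In tissue RNA, fewer cells of a type and less RNA per cell cannot be told apart.

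Derl3 had the largest difference of the 10, -2.71 ± 0.82, but its adjusted p was 0.0595 by limma, and the sham libraries spread over 2.48 log2 units. Hyou1 (-1.49, limma adjusted p = 0.0650), Creld2 (-1.20, 0.0934), Hsp90b1 (-0.82, 0.183) and Hspa5 (-0.67, 0.185) also missed the threshold. For 9 of the 10 genes both untreated libraries were below all 3 sham libraries, which held for 22.1% of all genes. Herpud1 differed by 0.19 ± 0.25 (limma adjusted p = 0.629). The median difference over the 10 genes was -1.34, against -0.03 over all genes tested. None of the 4 genes was called without untreated replicate 19 or without sham replicate 006, 1 was called without sham replicate 007 and 2 without either rivaroxaban library, while 6 were called without untreated replicate 17. Without that library the calls over all genes rose from 1435 to 5175. The 2 untreated libraries also differed from each other more than those of other groups did (SD over all genes of 0.79 log2 units, against 0.31 to 0.48), so the shared estimate of the spread may give errors that are too small here.

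**Figure D2:**
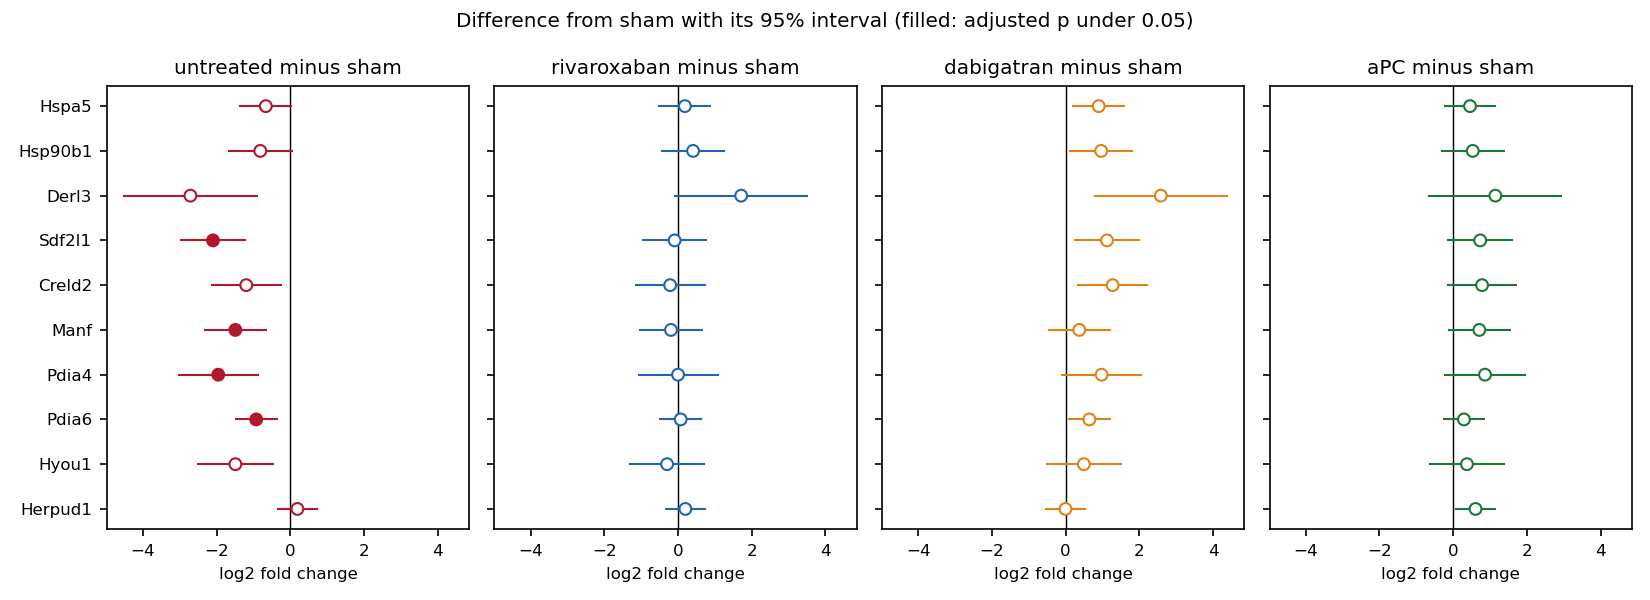
Difference of each group mean from the sham mean for the 10 genes (horizontal axis, log2 fold change; bars, 95% intervals from the fit of all 11 libraries; filled points, adjusted p under 0.05). The filled points are Sdf2l1, Manf, Pdia4 and Pdia6 in untreated hearts, and with each drug no point is filled.

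Against the untreated group, 9 of the 10 genes were called higher with dabigatran, 7 with aPC and 2 with rivaroxaban, which describes the contrasts from which they were chosen and tests nothing. With dabigatran 0 were called lower, and of all genes 8.71% were called higher and 5.08% lower. The differences were 5.29 for Derl3, 3.22 for Sdf2l1, 2.93 for Pdia4, 2.47 for Creld2, 1.99 for Hyou1, 1.86 for Manf, 1.78 for Hsp90b1, 1.57 for Pdia6 and 1.56 for Hspa5. Herpud1 stood at -0.19. With aPC 0 were called lower (7.44% of all genes were called higher and 10.2% lower), and the widest differences were Derl3 at 3.86, Sdf2l1 at 2.83, Pdia4 at 2.82 and Manf at 2.20. Hspa5, Hsp90b1 and Herpud1 were the 3 not called with aPC. With rivaroxaban Derl3 (4.43 ± 0.90) and Sdf2l1 (2.01 ± 0.44) were called higher and 0 genes lower, where 4.02% of all genes were called higher and 4.45% lower.

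Libraries of the drug group were all above both untreated libraries for 9 genes with rivaroxaban (28.1% of all genes), 9 with dabigatran (27.0%) and 10 with aPC (31.6%). These 3 comparisons share the untreated libraries and cannot be read as separate evidence of a response to each drug. The counts also rested on few libraries. With dabigatran 2 genes were called without replicate Dabi-202. With aPC 0 were called without replicate aPC-792, and 4 without untreated replicate 19. With rivaroxaban 0 were called without replicate Riva-313, 1 without replicate Riva-319 or untreated replicate 19, and 6 without untreated replicate 17, where the calls over all genes rose from 1147 to 5006.

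Sham hearts give a reference that leaves the untreated libraries out of the difference. With rivaroxaban, none of the 10 genes was called against sham, and neither was any other gene (0% of 13541 by limma, with 761 genes, or 5.62%, at an unadjusted p under 0.05 and 0 of the 10 among them). Derl3 was 1.71 ± 0.82 higher, with a 95% interval of -0.11 to 3.54, and the other 9 genes lay between -0.30 and 0.41. With dabigatran 0 of the 10 were called, where 18.5% of all genes were called in either direction. Their values were nonetheless above sham for 9 genes, with a median of 0.93. Derl3 differed by 2.58 ± 0.82 (95% interval 0.76 to 4.40, limma adjusted p = 0.0525), Creld2 by 1.28 ± 0.43 (limma adjusted p = 0.0647), Sdf2l1 by 1.12 ± 0.40 (limma adjusted p = 0.0765) and Hspa5 by 0.90 ± 0.32 (limma adjusted p = 0.0785). Both dabigatran libraries were above all sham libraries for 7 genes, as for 30.0% of all genes, and 6 of the 10 had an unadjusted p under 0.05, as did 34.1% of all genes.

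The dabigatran result sat close to the threshold. Without sham replicate 007 4 genes were called, without either untreated library 2, without either rivaroxaban library 1, and with only the sham and dabigatran libraries in the fit 6. With aPC 0 of the 10 were called against sham (1.17% of all genes). Herpud1 came nearest, at 0.61 ± 0.25 (limma adjusted p = 0.262). It was the 1 gene of the 10 with both aPC libraries above all 3 sham libraries, as for 24.0% of all genes. By limma 1 of the 10 genes had an unadjusted p under 0.05, as did 2307 of the 13541 genes tested.

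Among the drugs, Creld2 was lower with rivaroxaban than with dabigatran by a log2 difference of -1.49 ± 0.47 (limma adjusted p = 0.0449). It was the 1 gene of the 10 called lower, and 0 were called higher, where 14.0% of all genes were called lower and 9.39% higher. Sdf2l1 differed by -1.21 ± 0.44 (limma adjusted p = 0.0702). Both rivaroxaban libraries were below both dabigatran libraries for 7 of the 10 genes, as for 36.3% of all genes. The Creld2 call was lost when each library was centred on its own median, and without dabigatran replicate Dabi-202, sham replicate 006 or either rivaroxaban library. Between aPC and rivaroxaban 0 of the 10 were called (1.54% of all genes), and between aPC and dabigatran 0 (21.5% of all genes). In the former 0 of the 10 had an unadjusted p under 0.05 (20.9% of all genes), and in the latter also 0 (35.9%). Derl3 differed between aPC and dabigatran by -1.44, and these libraries do not show whether the drugs act alike on it.

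The genes also differed between libraries of the same group, in step with each other. Sham replicate 007 was above replicate 003 in 10 of 10 genes, by a median of 1.23 log2 units, and above replicate 006 in 10 of 10, by a median of 0.84. Replicate 006 was above replicate 003 in 8. Rivaroxaban replicate Riva-313 was above replicate Riva-319 in 10 of 10 (median 0.72, from 0.02 for Herpud1 to 2.36 for Derl3). aPC replicate aPC-792 was above replicate aPC-791 in 10 of 10 (median 0.73, from 0.02 for Herpud1 to 1.57 for Derl3). Dabigatran replicate Dabi-202 was above replicate Dabi-204 in 8, and untreated replicate 17 above replicate 19 in 6, with Derl3 and Herpud1 among the 4 that went the other way. Over all genes tested the median difference within a group was between -0.02 and 0.02. The range of these genes within sham, rivaroxaban and aPC was thus of the order of many of the differences between groups.

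**Figure D3:**
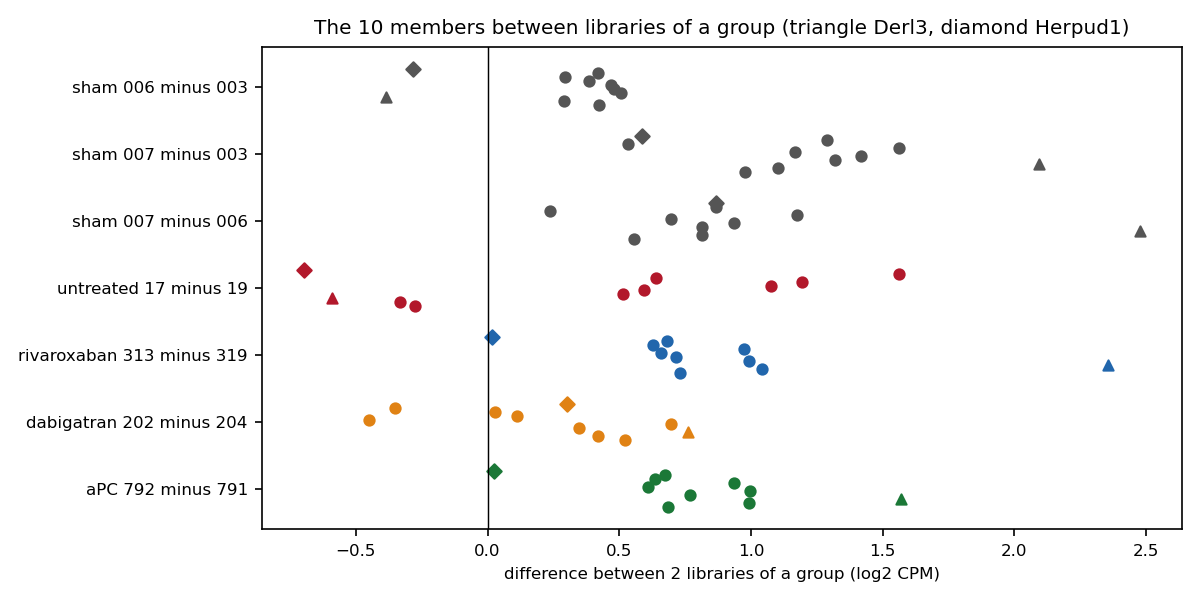
Difference between libraries of the same group for each of the 10 genes (horizontal axis, log2 CPM; triangles, Derl3; diamonds, Herpud1; circles, the other 8 genes; vertical offsets within a row only separate the points). Each row puts first the library in which more of the genes were higher, and every point lies to the right of 0 for sham replicate 007, rivaroxaban replicate Riva-313 and aPC replicate aPC-792.

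Over the 11 libraries, pairs of the 9 genes without Herpud1 had Pearson correlations from 0.763 to 0.985 (median 0.917). They are given as a description, because they mix differences between groups with those within groups. Herpud1 had correlations with the others from -0.03 to 0.28. Predicted genes were left out of the rankings that follow. Of genes outside the 10, those most like their mean were Calr (calreticulin, a lectin chaperone, r = 0.959), Dnajb11 (the co-chaperone that works with Hspa5 and Sdf2l1, r = 0.955), Pdia3 (a disulfide isomerase for glycoproteins, r = 0.951), Kcna4 (a potassium channel, r = 0.939) and Alox5 (5-lipoxygenase, r = 0.921). Calr had 8.67 and 8.53 log2 CPM in untreated hearts and 9.73 and 9.84 with dabigatran. Kcna4 had few reads, from -0.93 log2 CPM in untreated replicate 19 to 1.96 in dabigatran replicate Dabi-202. For Derl3 alone they were Calr (r = 0.942), Alox5 (0.937), Naaa (0.911), Serpinb6b (0.897) and Dnajb11 (0.887).

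Close relatives of the 10 genes were picked for description after their values were seen. Derl1 and Derl2, the other derlins, were called in none of the 10 comparisons, and neither were Sdf2, Creld1 or Herpud2. Derl1 averaged 6.27 log2 CPM in untreated and 6.66 in dabigatran hearts, where Derl3 went from -0.81 to 4.49. Derl3 was chosen for that contrast, so its wider change there tests nothing. The 2 relatives differed in the same direction, by 0.38 for Derl1 and 0.49 for Derl2. For both, the dabigatran libraries were above both untreated libraries, as for 27.0% of all genes. Cdnf, the relative of Manf, was lower with dabigatran than in sham by -0.68 ± 0.13 (limma adjusted p = 0.00743), a call lost without dabigatran replicate Dabi-202, while Manf stood at 0.37 ± 0.39. Of all genes 6.82% were called lower there. Cdnf was also called higher than with dabigatran under rivaroxaban (0.82 ± 0.14, limma adjusted p = 0.00335) and under aPC (1.02 ± 0.14, limma adjusted p = 0.00179). In these, 9.39% of all genes were called higher and 21.5% in either direction, respectively. With aPC it was called higher than in untreated hearts, by 0.68 (7.44% of all genes).

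The rest of the pathway was followed through lists of other genes. Of 30 other ER folding genes, 2 fell in untreated hearts against sham and 0 rose, where 5.52% of all genes fell and 5.07% rose. That count is near the share over all genes. The median of the 30 was -0.26, against -0.03 over all genes. The 2 that fell were Serpinh1, the collagen chaperone, at -1.41 ± 0.21 (limma adjusted p = 0.00575), and Pdia5, a disulfide isomerase outside the naming rule, at -1.64 ± 0.44 (limma adjusted p = 0.0411). Without untreated replicate 17 11 of the 30 were called lower, and without any 1 library other than that one or untreated replicate 19, 1 was. With dabigatran against sham 5 of the 30 rose and 1 fell, where 11.7% of all genes rose and 6.82% fell, with a median of 0.33 against 0.01 over all genes. Fkbp11, a proline isomerase, rose by 1.56 ± 0.26 (limma adjusted p = 0.00425) and Ero1l, the oxidase that recharges disulfide isomerases, by 0.84 ± 0.16 (limma adjusted p = 0.00654).

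Of 21 genes of ER translocation and N-glycosylation, 9 rose with dabigatran against sham and 0 fell (11.7% and 6.82% of all genes, median 0.42), and 10 were lower with rivaroxaban than with dabigatran (14.0% of all genes, and 4 of the 21 without Dabi-202 or Riva-319). Spcs3, a subunit of signal peptidase, rose by 1.55 ± 0.24 (limma adjusted p = 0.00276), from 6.51 to 6.91 log2 CPM in sham to 8.12 and 8.48 with dabigatran. Against sham, 0 of the 21 were called in untreated hearts (6 lower without untreated replicate 17). Without dabigatran replicate Dabi-202 no gene of the folding or of the translocation list was called against sham, and without either untreated library 11 and 15 were. Of 21 other degradation genes, 2 rose and 1 fell with dabigatran against sham, against 11.7% and 6.82% of all genes, and 0 were called in untreated hearts. The fall was that of Erlec1, a lectin of the degradation pathway, at -0.38. None of these 3 was called without dabigatran replicate Dabi-202, either rivaroxaban library, or sham replicate 003 or 006.

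**Figure D4:**
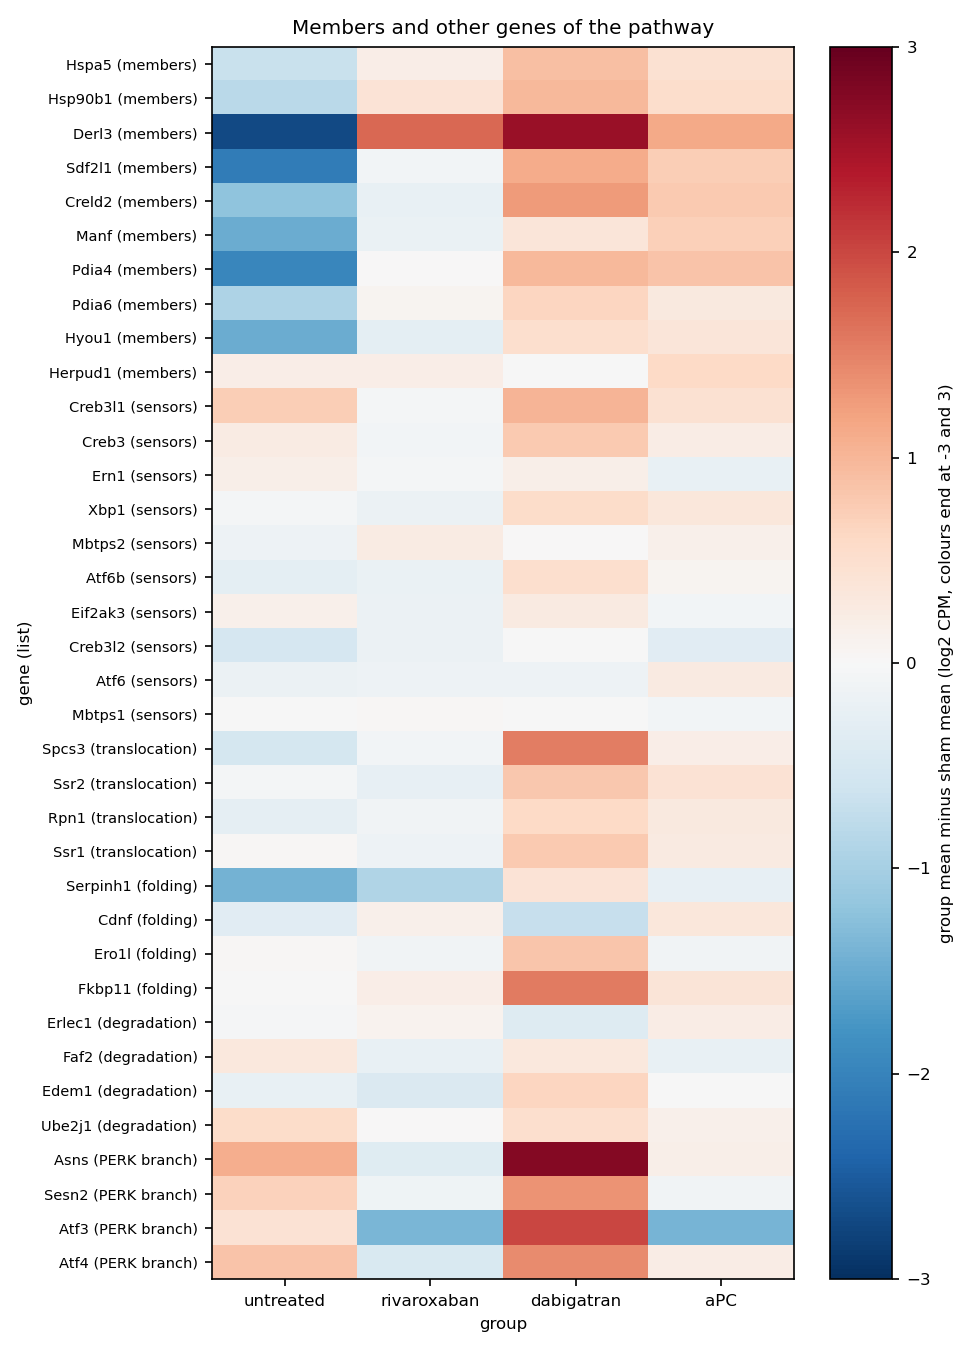
Group mean minus sham mean (colour, log2 CPM, ending at -3 and 3) for the 10 genes and for named genes of the other pathway lists, by group. Blue stands for lower and red for higher than sham; Derl3 runs from -2.71 in untreated to 2.58 with dabigatran, and Asns reaches 2.75 with dabigatran.

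The stress sensors and their transcription factors gave few calls. Of 10 tested, 0 were called between untreated and sham hearts, and 2 were higher with dabigatran than in sham (11.7% of all genes), Creb3l1 (1.02 ± 0.21, limma adjusted p = 0.0114) and Creb3 (0.79 ± 0.18, limma adjusted p = 0.0143). Both are membrane-bound transcription factors of the family to which Atf6 belongs, and both calls were lost without dabigatran replicate Dabi-202. Without either untreated library 4 of the 10 sensors were higher with dabigatran than in sham, and without untreated replicate 17 1 was higher and 2 lower in untreated than in sham hearts. Total Xbp1 averaged 7.04 log2 CPM in sham, 6.99 in untreated, 6.86 with rivaroxaban, 7.59 with dabigatran and 7.39 with aPC, and its splicing is not visible in these values. Atf6 averaged 7.67 in sham and 7.50 in untreated hearts, Ern1 4.78 and 4.97, and Eif2ak3 4.41 and 4.56. Mbtps1 and Mbtps2, the proteases that cut Atf6, and Atf6b and Creb3l2 were called in no comparison.

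Genes of the PERK and Atf4 branch formed a separate list. Asns, asparagine synthetase, an Atf4 target, was 1.62 to 1.93 log2 CPM in sham, 2.65 and 3.00 in untreated, 1.09 and 1.66 with rivaroxaban, 4.41 and 4.57 with dabigatran and 1.45 and 2.38 with aPC. Its level in untreated hearts was above sham, where Sdf2l1, Pdia4, Manf and Pdia6 were below. The difference was 1.08 ± 0.30 (limma adjusted p = 0.0454), and leaving out any library other than an aPC library ended the call. With dabigatran against sham 5 of the 9 genes of this list rose and 0 fell, where 11.7% of all genes rose and 6.82% fell, with Asns at 2.75 ± 0.30 (limma adjusted p = 0.000977), Atf3, a stress transcription factor, at 2.00 ± 0.60 (limma adjusted p = 0.0426), Atf4 at 1.42 ± 0.36 (limma adjusted p = 0.0241) and Sesn2 at 1.35 ± 0.25 (limma adjusted p = 0.00640). The median of all 9 was 1.25, against 0.01 over all genes. Without dabigatran replicate Dabi-202 1 of the 9 was called, without sham replicate 003 or 006 2, and without sham replicate 007 or either rivaroxaban library 3. With rivaroxaban 4 of the 9 were lower than with dabigatran (14.0% of all genes), Asns by a log2 difference of -3.12 ± 0.33 (limma adjusted p = 0.000469). Of these 9, 1 was called lower without Dabi-202 or Riva-313 and 7 without Dabi-204.

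Cell type markers were checked in the same libraries. Summed cardiomyocyte markers (6 genes) were at 41693 to 81269 CPM in every library of this heart tissue, and were lowest with dabigatran, at 41693 and 43177 CPM. Of all listed markers, only Jchain was at 3 reads or fewer in any library, in 4 of them. Markers of monocytes and macrophages (8 genes) summed to 247 and 285 CPM in untreated hearts, 419 to 586 in sham, 325 and 362 with rivaroxaban, 567 and 616 with aPC and 790.6 and 838 with dabigatran. In untreated against sham, 4 of these 8 were called lower and 2 higher (5.52% and 5.07% of all genes). B cell and plasma cell markers (7 genes) summed to 10.1 and 15.6 CPM in untreated hearts, 15.4 to 23.0 in sham, 19.1 and 23.0 with rivaroxaban, 22.4 and 23.4 with aPC and 42.5 and 55.7 with dabigatran. Of that dabigatran sum, Sdc1 made up 28.6 and 31.8 CPM, against 8.46 to 10.3 in sham. Mzb1 was lower with dabigatran, at 1.33 and 1.05 CPM against 1.60 to 2.30 in sham. With dabigatran against sham, 2 of the 6 tested were called higher and 0 lower (11.7% and 6.82% of all genes), and 5 had higher values. Fibroblast markers (8 genes) summed to 917 and 1009 CPM in untreated hearts, 1397 to 2108 in sham and 1322 to 2474 with a drug. Of these 8, 3 were called lower and 0 higher in untreated against sham (5.52% and 5.07% of all genes), and 2 had higher values. Endothelial markers (8 genes) summed to 1375 and 1441 CPM in untreated hearts and 1009 to 1196 in the other groups. In untreated against sham, 2 of these 8 were called higher and 2 lower (5.07% and 5.52% of all genes). Only 4 had higher values, so the sum does not stand for each marker. Smooth muscle and pericyte markers (8 genes) summed to 1055 and 1354 CPM in untreated hearts, 1503 to 1627 in sham, 1591 and 1631 with rivaroxaban, 1001 and 1192 with dabigatran and 1252 and 1434 with aPC. Neutrophil markers (8 genes) summed to 108 and 165 CPM in untreated hearts, 31.9 to 50.3 in sham, 18.3 and 41.9 with rivaroxaban, 42.6 and 109 with aPC and 592 and 1041 with dabigatran. In the untreated libraries, where 9 of the 10 genes were low, the macrophage and fibroblast sums were thus below those of every other library, the endothelial sum was above, and the neutrophil sum was above sham. The part of these cell types in the differences between groups was not tested. Within sham, replicate 007 had the highest level of all 10 genes. Of the 3 libraries it had the lowest macrophage (419 CPM), fibroblast (1397 CPM) and B cell (15.4 CPM) sums. It also had the highest cardiomyocyte (72337 CPM), endothelial (1196 CPM) and neutrophil (50.3 CPM) sums. Its smooth muscle and pericyte sum (1575 CPM) lay between the others.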

How the data were processed

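The table deposited by the authors holds log2 CPM with TMM scaling (trimmed mean of M values), per its name. The tools listed in the submitters' processing notes, without versions, are bcl2fastq and FastQC, then Trim Galore, then STAR, and edgeR, on build mm10. How reads were counted, and with which annotation and strand setting, is not given in the sources used here. The lowest value was -3.93 in every library, and 100% of the values were whole multiples of 1 read within 0.05 of a read, which gave the read totals. Of the 15 labelled samples, 11 are in the table and 4 were not analysed here.

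Genes at 0 log2 CPM or more in at least 3 libraries were tested with limma-trend (limma 3.58.1, R 4.3.3), two-sided, in 1 fit of 5 group means over 11 libraries (6 residual degrees of freedom), with 10 comparisons and Benjamini-Hochberg adjustment over 13541 genes in each. Fold changes are on the deposited log2 scale, which understates changes of genes with few reads. The procedure was tested on simulated data made from these libraries. For untreated against sham it recovered 79 of 100 genes changed 2-fold and 100 of 100 changed 4-fold among 13541, with 12 false calls. The simulation gave each gene 1 spread, set by its mean level and equal in all groups. The untreated libraries and several of the 10 genes varied more than that, so the recovery may be overstated for them.

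The 10 genes and all lists were chosen with earlier results of these data known. Pathway genes named are up to 4 of each list with the smallest p of the moderated F-test, and every tested stress sensor. Genes named for likeness are the 5 with the highest correlation to the mean of the 10 genes and to Derl3. Predicted genes (Gm names with digits and Rik names) were left out of that ranking. Exon lengths and positions come from GENCODE M21, matched to 16654 of 16658 identifiers. Alternatives were other filters, normalizations, a pseudocount of 1 CPM, library weights, robust moderation, fits of the 2 groups compared and leaving out each library. Those of the pathway lists and genes were added after the data were seen. Protein sequences were not used here.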

Additional observations from a re-analysis of the deposited data

How the results depend on the processing

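For the 10 genes, 1771 of 1900 fold changes recomputed under the alternatives kept their direction or lack of a call, 89 lost a call, 40 gained one and 0 called values reversed; 44 uncalled values changed sign, the largest 0.87 on the log2 scale. Of 11780 values for the pathway genes and relatives, 0 called values reversed. The number of the 10 genes called moved with the settings that follow. Library weights, which set both untreated libraries at 0.242, took untreated against sham from 4 to 0, rivaroxaban, dabigatran and aPC against untreated from 2, 9 and 7 to 0, and dabigatran and aPC against sham from 0 to 1. Fitting only the 2 groups compared gave 1 for untreated against sham, 0 for rivaroxaban and aPC against untreated, 6 for dabigatran against sham, 2 for rivaroxaban against dabigatran, and 1 for aPC against rivaroxaban and aPC against dabigatran. Quantile normalization gave 4 for rivaroxaban against untreated and 1 for dabigatran against sham, log2(CPM + 1) gave 1 for dabigatran against sham, and median centring gave 0 for rivaroxaban against dabigatran. The cause was not tested. Leaving out each library gave 0 to 6 genes for untreated against sham and for rivaroxaban against untreated, 2 to 9 for dabigatran against untreated, 0 to 9 for aPC against untreated, 0 to 4 for dabigatran against sham and 0 to 2 for rivaroxaban against dabigatran. A group left with 1 library is assumed to vary like the others. Median centring moved the median of all genes by -0.105 in dabigatran against untreated and by 0.134 in aPC against dabigatran, and quantile normalization moved the latter by 0.102. No paired analysis was possible because no replicate number is shared between groups. Derl3 rested on 13 and 18 reads in the untreated libraries, which limits its precision there.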
